A study of Cardamine hirsuta with 24 samples.

Results

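*BMY1* (CARHR221930), a beta-amylase gene, was followed through 24 RNA-seq libraries of *Cardamine hirsuta* shoot apices as 1 of the 29458 genes listed for each library. The gene was chosen by its measured values in these same libraries, namely its levels, its change with time and its difference between treatments. Those levels and differences are therefore given as a description, with their spread but without a test. Its *Arabidopsis thaliana* counterpart, as paired in the study's tables, is AT4G15210, known there as *BMY1* and as beta-amylase 5.

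Beta-amylases release maltose from the ends of starch and other glucan chains. In leaves, starch built in the plastid by day is taken apart at night, and in *A. thaliana* plastid beta-amylases such as BAM1 and BAM3 carry out that step. The *A. thaliana* BMY1 enzyme is different: it is the main beta-amylase outside the plastid, is found in the phloem, and its gene is induced by sugars, while mutants with little of it still degrade leaf starch. The name of the gene thus gives an enzyme activity, and the count data hold no measure of starch or maltose.

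All plants, Mock included, carried the same pair of transgenes, *RCOp::LhG4:GR* and *Op(6)::ChCUC1:Venus*. The first encodes an activator kept out of the nucleus until dexamethasone is added, and the second a Venus fusion of ChCUC1, a NAC factor of organ boundaries. The *RCO* promoter is active in small foci at the margin of developing leaves, so only a small share of the sampled cells would carry the induced protein. That share was not measured in these libraries. Seedlings 12 days old were treated in liquid medium with 10 µM dexamethasone (Dex) or with 0.1% DMSO (Mock) and sampled at 2, 4, 6 and 8 h. Each of the 8 groups had 3 replicates, each a pool of 20 seedlings from which cotyledons, roots and mature leaves had been removed. Depth was 12850309 to 22956929 gene counts per library. CPM are gene counts scaled to TMM-adjusted library size, ± is the SD over 3 libraries for CPM and the SE for a log2 fold change, and a gene was called where edgeR's quasi-likelihood test gave a Benjamini-Hochberg adjusted p under 0.05 and the change exceeded 1.5-fold. The labels do not say whether replicates were grown or treated separately, so p-values measure the spread between these pools.

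The label check passed in every library. *ChCUC1* (CARHR090150) was above every Mock library in each Dex library, and its average log2 fold change over the times was 1.702 ± 0.19 (adjusted p = 5.45e-04, edgeR). Of 19 shoot apex marks written down, 4 had an identifier in the study's tables, 2 of them only among its differentially expressed genes. *KNAT1* (a meristem homeobox gene), *ANT* (a factor of organ primordia), *ULT1* and *ChCUC1* were all detected in every library, with a summed level of 49.3 to 67.8 CPM in Dex and 34.2 to 58.3 CPM in Mock. That sum includes the induced *ChCUC1* itself, at 6.18 to 11.6 CPM in Dex and 0.778 to 4.40 CPM in Mock. In stress genes the Dex and Mock libraries numbered 1 differed most. Over the 18 heat shock genes the mean Dex minus Mock difference was -3.93 on the log2 scale between the libraries numbered 1, against -0.34 and -1.08 for those numbered 2 and 3, so results are given with and without replicate 1.

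In Mock, *BMY1* was high at 2 h and about one order of magnitude lower at 8 h. The 3 Mock libraries at 2 h held 27.7, 23.8 and 26.4 CPM (493, 502 and 537 reads), a narrow range around a mean of 25.95 ± 1.99 CPM. At 4 h they held 3.99, 5.35 and 8.53 CPM, all below every 2 h library. At 6 h the values were 1.17, 3.799 and 3.44 CPM and at 8 h 3.11, 2.47 and 2.47 CPM.

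The lowest value of the series, Mock replicate 1 at 6 h, rested on 18 reads, with an exact Poisson 95% interval of 0.692 to 1.85 CPM that covers counting error only. That interval overlapped those of Mock replicates 2 and 3 at 8 h, which start at 1.82 and 1.84 CPM. Most of the loss lay between 2 h and 4 h (log2 fold change -2.12 ± 0.49), with a further step of -1.07 ± 0.51 from 4 h to 6 h and -0.08 ± 0.52 from 6 h to 8 h. From 2 h to 8 h the fitted change in Mock was -3.27 ± 0.51, a level 9.64-fold lower, and the libraries numbered 1, 2 and 3 gave drops of 8.89-, 9.64- and 10.7-fold. Of all 21689 genes tested, 2.51% had a larger decrease in this comparison, and without replicate 1 the value was -3.34.

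In Dex, *BMY1* was also lower after 2 h, but it did not reach the Mock level. The Dex libraries held 36.2, 16.5 and 37.2 CPM at 2 h (760, 346 and 827 reads), with replicate 2 below all 3 Mock libraries of that time. At 4 h they held 19.0, 9.30 and 8.58 CPM. At 6 h the values were 12.4, 5.03 and 7.55 CPM, the lowest of the time course for replicates 1 and 3.

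At 8 h the Dex libraries held 18.8, 4.80 and 13.5 CPM, so that replicates 1 and 3 stood above their own 6 h libraries and replicate 2 slightly below. The fitted change from 6 h to 8 h in Dex was 0.57 ± 0.47. From 2 h to 8 h it was -1.27 ± 0.46, a level 2.42-fold lower, and the 3 replicate numbers gave drops of 1.93-, 3.43- and 2.76-fold. Without Dex replicate 1 at 8 h the value was -1.72 and without Dex replicate 2 at 8 h it was -0.89. Time in the medium and the hour of harvest cannot be told apart in either treatment, because the labels give only the hours in the medium.

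**Figure D1:**
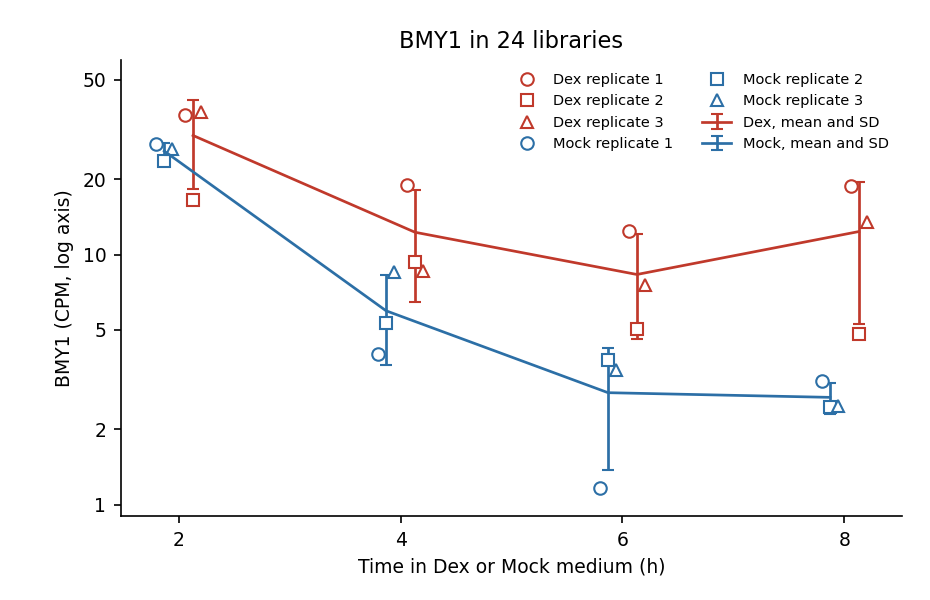
*BMY1* level in CPM on a log axis against hours in Dex (red) or Mock (blue) medium, with 1 symbol per library and lines through group means ± SD (n = 3). Mock libraries lie near 26 CPM at 2 h and between 2.47 and 3.11 CPM at 8 h, while Dex libraries at 8 h spread from 4.80 to 18.8 CPM.

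Ordered by mean, the groups ran from Dex at 2 h (29.9 ± 11.7 CPM) and Mock at 2 h (25.95 ± 1.99) through Dex at 8 h (12.4 ± 7.06), Dex at 4 h (12.3 ± 5.80) and Dex at 6 h (8.32 ± 3.74) to Mock at 4 h (5.96 ± 2.33), Mock at 6 h (2.80 ± 1.43) and Mock at 8 h (2.68 ± 0.37). Neighbours in this order overlapped in range at every step except from Mock at 2 h to Dex at 8 h and from Mock at 4 h to Mock at 6 h. The Dex groups had a coefficient of variation of 39.1% to 57.2%. In Mock the coefficient was 7.68% at 2 h and 13.9% at 8 h, but 39.1% and 50.9% at 4 h and 6 h. *BMY1* as a whole was a variable gene: its SD of log2 CPM within groups was 0.65, against a median of 0.24 over the 1000 genes nearest to it in mean level, 94.4% of which varied less.

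The Dex difference widened with time. At 2 h the fitted Dex minus Mock value was 0.21 ± 0.45 on the log2 scale, and 2 of 3 Dex libraries exceeded every Mock library. At 4 h it was 1.05 ± 0.48, with all 3 Dex libraries above all Mock libraries by the narrowest of margins, 8.58 against 8.53 CPM. At 6 h it was 1.55 ± 0.50 and the lowest Dex library stood at 5.03 CPM against 3.799 CPM for the highest Mock library.

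At 8 h *BMY1* was 4.60-fold higher in Dex (2.201 ± 0.50), and the ranges were apart, from 4.80 CPM upward in Dex and up to 3.11 CPM in Mock. The share of tested genes with a larger increase than *BMY1* was 27.3% at 2 h, 3.49% at 4 h, 1.07% at 6 h and 0.696% at 8 h. The average over the 4 times was 1.25 ± 0.24, a level 2.38-fold higher in Dex. The difference at 8 h less that at 2 h was 1.99 ± 0.67, and it shares the Mock and Dex libraries of 2 h and 8 h with the time changes above. At a single time edgeR called 1 gene of the whole table at 2 h (0.00461%) and 0 at 4, 6 and 8 h, with 3047, 4784, 2183 and 3433 genes at an unadjusted p under 0.05 and 117, 134, 2 and 136 genes called by DESeq2, and nothing is read from these counts about *BMY1*, whose rule used the same comparisons.

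The size of the Dex difference depended on the replicate number. Taking Dex minus Mock between libraries of the same number, which does not mean that they were paired, the libraries numbered 1 gave log2 values of 0.39, 2.22, 3.296 and 2.55 at 2, 4, 6 and 8 h. Those numbered 2 gave -0.53, 0.79, 0.40 and 0.93. Those numbered 3 gave 0.49, 0.01, 1.11 and 2.399. The number 1 libraries thus differed most at 4, 6 and 8 h, and the number 2 libraries differed by less than 1 log2 unit throughout. The means over the times were 2.11, 0.40 and 1.002. Without replicate 1 the fitted values were 0.10 at 2 h, 0.36 at 4 h, 0.80 at 6 h and 1.89 at 8 h, and the average over the times was 0.79.

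**Figure D2:**
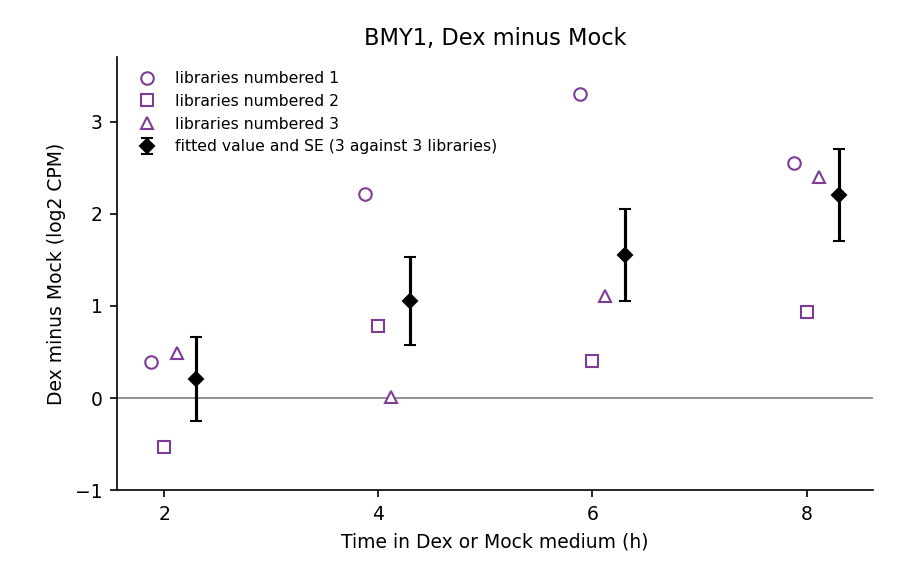
Dex minus Mock difference of *BMY1* (log2 CPM) against hours of treatment, with open symbols for libraries of the same replicate number and black diamonds for the fitted value ± SE of 3 against 3 libraries. The fitted value runs from 0.21 at 2 h to 2.201 at 8 h, and the circles of the libraries numbered 1 are the highest at 4, 6 and 8 h.

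Hypoxia genes ran against *BMY1* across libraries, whereas the correlation of heat shock genes with it changed sign between sets of libraries. Of 11 hypoxia genes written down, 4 had an identifier in the study's tables. The 4 hypoxia genes were *PDC1* (pyruvate decarboxylase of fermentation), *SUS1* (sucrose synthase), *LBD41* and *HRE2* (factors induced by low oxygen), and all 4 were detected in every library. Their summed level ran from 33.8 to 704.1 CPM in Dex and from 133 to 1612 CPM in Mock. In 6 of the 8 groups the library with the highest hypoxia level was the one with the lowest *BMY1* level, the exceptions being Mock at 2 h and Mock at 8 h. Over the 24 libraries, which share their groups and times, the correlation of *BMY1* with the mean log2 level of the list was -0.83 (-0.93 over the 12 Mock libraries, -0.76 over the 12 Dex libraries, -0.91 over the 16 libraries of replicates 2 and 3).

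The library lowest in *BMY1* was also the most extreme in stress genes. Mock replicate 1 at 6 h, with the lowest *BMY1* level, had the highest summed hypoxia level (1612 CPM) and the highest summed heat shock level (7595 CPM). Dex replicate 1 at 6 h, with 12.4 CPM of *BMY1*, had the lowest summed hypoxia level (33.8 CPM). The summed heat shock level was lower in Dex replicate 1 than in the other Dex libraries at every time (720 to 1660 CPM), and their list mean correlated with *BMY1* at -0.35 over all libraries, 0.16 over Mock, -0.49 over Dex and 0.19 without replicate 1. In each of the 8 groups the library highest in heat shock genes was also the one highest in hypoxia genes. Its match with the lowest *BMY1* level in 6 of the 8 groups is therefore the same observation, not a further one. Averaged over the times, 18 of 18 heat shock genes were called lower in Dex, among them the small heat shock proteins *HSP21* (-3.94 ± 1.11, adjusted p = 0.0140) and *HSP17.4* (-2.82 ± 0.71, adjusted p = 0.00837), and 3 of 4 hypoxia genes, led by *PDC1* (-1.62 ± 0.50, adjusted p = 0.0201, all edgeR). The share of all genes called in this comparison was 13.7%. All 18 heat shock genes and all 4 hypoxia genes were identified only through the study's differentially expressed genes from these same libraries. Their counts are therefore not independent evidence of a direction. Without replicate 1, where 0.687% of all genes were called, 3 of 18 and 1 of 4 were called, and the list medians were -0.71 and -0.63 against -1.90 and -1.47 with all libraries. The *HSP21* call was also lost without Mock replicate 1 at 4 h alone, and its values over single libraries left out ran from -4.77 to -2.18. The part of these stress signs in the *BMY1* difference was not tested.

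**Figure D3:**
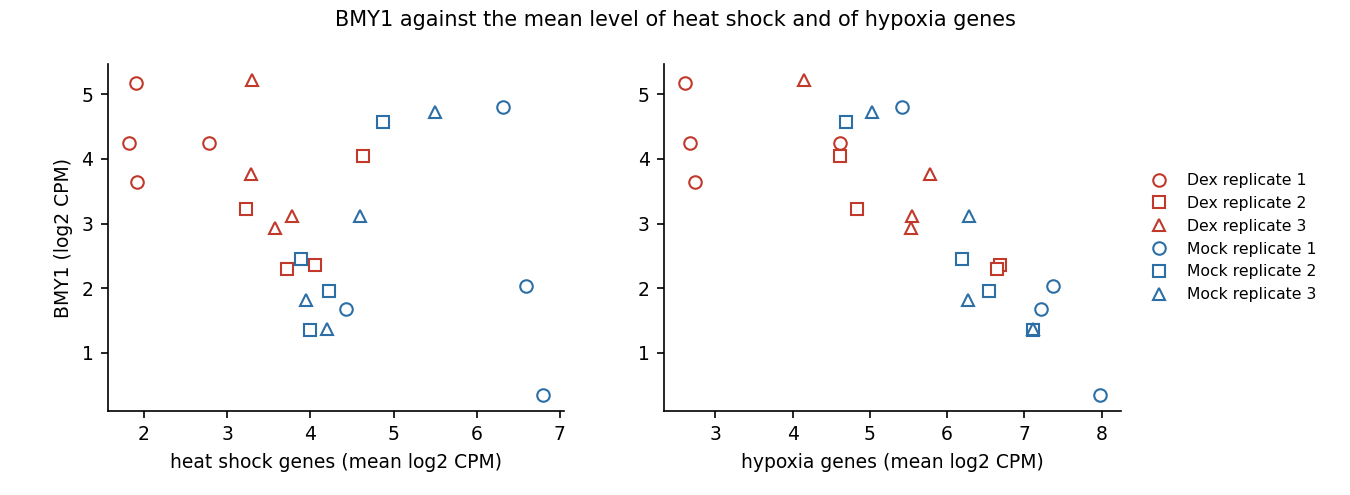
*BMY1* level (log2 CPM) against the mean log2 CPM of 18 heat shock genes (left) and of 4 hypoxia genes (right), 1 symbol per library, red for Dex and blue for Mock. On the right *BMY1* is lower in libraries with more hypoxia transcripts, down to Mock replicate 1 at 6 h at the bottom right, whereas on the left the Mock libraries of 2 h lie high on both axes.

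The other carbohydrate genes were listed in 4 groups by role: starch breakdown, starch synthesis, sucrose handling with sugar transport, and sugar starvation with trehalose phosphate. Of 112 genes written down beside *BMY1*, 39 had a *C. hirsuta* identifier in the study's tables and 38 were tested. For 23 of them the identifier appears only among the study's differentially expressed genes from these same libraries, so the counts below are not independent evidence of a direction. In the average over the times 5 of the 38 were called higher in Dex and 13 lower, against 13.7% of all genes called (4.76% higher, 8.89% lower). Their median log2 fold change was -0.28, with 0.04 over all genes.

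From 2 h to 8 h in Mock 3 of the 38 rose and 15 fell (24.3% of all genes called, 8.88% higher and 15.5% lower), with a median of -0.80 against -0.04 over all genes. In Dex 2 rose and 13 fell (17.4% of all genes called, 6.67% higher and 10.7% lower), with a median of -0.48 against 0.03. At the single times edgeR called 0 of the 38 in Dex against Mock, with 10, 13, 16 and 11 genes at an unadjusted p under 0.05 and 0, 1, 0 and 2 called by DESeq2 at 2, 4, 6 and 8 h. Without replicate 1 only *SUS1*, *SWEET2* and *DIN11* of the 38 were called in the average over the times (149 genes in all, 0.687%), and without replicate 3 none was, with 27 at an unadjusted p under 0.05 by edgeR. The time calls in Mock numbered 25 without replicate 1, 6 without replicate 2, 3 without replicate 3 and 11 without Mock replicate 2 at 2 h, and those in Dex 17, 5 and 3 without replicates 1, 2 and 3.

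Of the genes of starch breakdown, 3 besides *BMY1* could be tested, and none shared its course over the 24 libraries. *BAM6*, another beta-amylase gene, was nearest. It held 8.03 to 8.997 CPM in Mock at 2 h and 4.997 to 5.84 CPM in Mock at 8 h, and 8.72 to 10.9 CPM and 6.77 to 11.4 CPM in Dex at the same times. Its average Dex difference was 0.53 ± 0.16 with an adjusted p of 0.0193 (edgeR), under the fold limit, and its 8 h against 2 h values were -0.63 ± 0.33 in Mock and -0.11 ± 0.32 in Dex, neither of them called.

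*BAM1*, the plastid beta-amylase of *A. thaliana* leaves and guard cells, was called lower in Dex (-0.90 ± 0.28, adjusted p = 0.0204, edgeR), the opposite side from *BMY1*. That call rested on replicate 1. Mock replicate 1 held 87.7 CPM of *BAM1* at 4 h and 155 CPM at 6 h, against 25.8 and 29.3 CPM and 22.2 and 22.2 CPM in Mock replicates 2 and 3. Without replicate 1 the value was -0.10 (adjusted p = 0.480), the call was also lost without Mock replicate 1 at 4 h or at 6 h alone, and DESeq2 gave *BAM1* no adjusted p. Between 2 h and 8 h *BAM1* went from 55.2 ± 5.20 to 33.6 ± 6.04 CPM in Mock. In Dex it went from 35.3 ± 4.71 to 25.9 ± 5.49 CPM, and edgeR called neither change.

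*AMY2*, a cytosolic alpha-amylase gene, ran against *BMY1*. It rose from 46.5 ± 11.3 to 77.5 ± 3.26 CPM between 2 h and 8 h in Mock (0.74 ± 0.17, adjusted p = 0.00336) and from 41.3 ± 1.92 to 63.3 ± 6.32 CPM in Dex (0.62 ± 0.17, adjusted p = 0.0152, both edgeR). Its average Dex difference of -0.32 ± 0.09 stayed under the fold limit (adjusted p = 0.0103). The call in Mock was lost without Mock replicate 2 at 2 h, and that in Dex without Dex replicate 1 or 3 at 2 h or Dex replicate 2 at 8 h.

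Among the 4 starch synthesis genes tested, *APL3*, a large subunit of ADP-glucose pyrophosphorylase, which makes the sugar donor for starch, came closest to *BMY1*. In Mock its libraries held 12.2, 12.5 and 11.9 CPM at 2 h and 4.93, 4.58 and 5.15 CPM at 8 h, a fall of 1.32 ± 0.37 on the log2 scale (adjusted p = 0.0114, edgeR). In Dex they held 13.7, 12.0 and 12.3 CPM at 2 h and 20.7, 6.77 and 15.6 CPM at 8 h. As with *BMY1*, Dex replicate 1 was the highest and Dex replicate 2 the lowest at 8 h, and all 3 exceeded the Mock range.

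The *APL3* change in Dex from 2 h to 8 h was 0.18 ± 0.36 (adjusted p = 0.756), and its average Dex difference was 0.76 ± 0.18 (adjusted p = 0.00696, both edgeR), or 0.37 without replicate 1 (adjusted p = 0.184). For *APL3* the Dex difference at 8 h less that at 2 h was 1.51 ± 0.51 with an adjusted p near 1, and edgeR called 0 of 21689 genes in that comparison (937 at an unadjusted p under 0.05, 2 by DESeq2). The branching enzyme gene *SBE2.2* fell with time in Mock (-1.27 ± 0.14, adjusted p = 1.51e-06) and in Dex (-0.92 ± 0.13, adjusted p = 8.06e-05). *GPT2*, the plastid glucose 6-phosphate carrier, rose in Mock (1.20 ± 0.40, adjusted p = 0.0312, lost without any 1 of 5 of the 6 libraries) and stood at 1.05 ± 0.40 in Dex (adjusted p = 0.0687, all edgeR). *SBE2.1* passed no call.

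Among 19 genes of sucrose handling and sugar transport, 9 fell and none rose between 2 h and 8 h in Mock (15.5% of all genes fell), and 7 fell and none rose in Dex (10.7% of all genes fell). They included *SWEET17* (vacuolar fructose facilitator, -1.85 ± 0.44 in Mock and -1.53 ± 0.41 in Dex), *TMT1* (vacuolar hexose antiporter, -1.24 ± 0.30 and -0.996 ± 0.29) and *VI1* (vacuolar invertase, -2.34 ± 0.36 and -2.03 ± 0.35). *SPS2F* (sucrose phosphate synthase), *SWEET13* (sucrose facilitator), *ERDL4* and *ERDL13* (ERD6-like sugar transporters) fell in both treatments, *CWINV3* (of the cell wall invertase family) and *ERDL16* in Mock. Adjusted p ran from 7.11e-06 to 0.0412 in Mock and from 2.78e-04 to 0.0207 in Dex (edgeR). Single libraries decided several of these calls: in Mock those of *SWEET13*, *ERDL13* and *ERDL16* were lost without replicate 2 at 2 h, and in Dex those of *SWEET13*, *SWEET17* and *TMT1* were lost without replicate 1 at 2 h or replicate 2 at 8 h and that of *SPS2F* without replicate 2 at 2 h or replicate 1 at 8 h. *SWEET13* and *ERDL13* lay near the floor, with group means of at most 1.21 and 2.11 CPM (both Dex at 2 h).

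Like *BMY1*, *SWEET17*, *TMT1* and *ERDL16* stood higher in Dex when the times were averaged. *SWEET17* held 2.25, 5.92 and 4.62 CPM in Mock at 2 h and 1.16, 1.11 and 1.29 CPM in Mock at 8 h. In Dex it held 10.9, 4.56 and 8.54 CPM at 2 h and 3.52, 1.92 and 2.82 CPM at 8 h, with every Dex library above every Mock library at 8 h. The average Dex differences were 0.95 ± 0.21 for *SWEET17* (adjusted p = 0.00595), 0.67 ± 0.15 for *TMT1* (adjusted p = 0.00571) and 0.78 ± 0.22 for *ERDL16* (adjusted p = 0.0125, all edgeR), and without replicate 1 they were 0.52, 0.37 and 0.34, none of them called.

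The other 6 genes of this group that were called in the average stood lower in Dex: *SUS1* (-1.50 ± 0.33), which also belongs to the hypoxia list, *SWEET2* (a vacuolar sugar facilitator, -1.45 ± 0.31), *ESL1* (an ERD6-like transporter, -1.20 ± 0.40), *HXK3* (a plastid hexokinase, -1.08 ± 0.20), *NINV* (a neutral invertase, -0.94 ± 0.23) and *STP13* (a hexose symporter, -0.83 ± 0.14), with adjusted p of 0.00464 to 0.0290 (edgeR). The *ESL1* call was lost without any 1 of 6 libraries, 5 of them of replicate 1. *SUS1* was highest where *BMY1* was lowest, with 478 CPM in Mock replicate 1 at 6 h. Its own lowest level, 13.8 CPM in Dex replicate 1 at 6 h, was in a library that ranked 10 from the highest for *BMY1* (12.4 CPM).

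Sugar starvation and trehalose phosphate genes, which include genes switched on in the dark or at low sugar in *A. thaliana*, moved both ways. Of 12, 6 were called lower and 1 higher in Dex in the average. The lower ones were *MIOX4* and *MIOX2* (inositol oxygenases, -1.63 ± 0.50 and -0.66 ± 0.18), *DIN11* (a dark-inducible oxygenase, -1.48 ± 0.28), *TPS11* (a class II trehalose phosphate synthase, -1.20 ± 0.30), *TPPG* (a trehalose phosphate phosphatase, -1.18 ± 0.26) and *BZIP1* (a factor of low energy, -0.77 ± 0.23), with adjusted p of 0.00464 to 0.0183 (edgeR). The higher one was *TPPB*, also a trehalose phosphate phosphatase (0.87 ± 0.27, adjusted p = 0.0215, edgeR). With time, *DIN6* (asparagine synthetase), *DIN9* (phosphomannose isomerase), *EXL1* and *MIOX2* fell in both treatments, *BCAT2* (an amino acid aminotransferase) fell in Dex, and *DIN11* rose in both. *EXL1* and *MIOX4* lay near the floor, with group means of at most 1.56 and 0.744 CPM (both Mock at 2 h). *DIN6*, a widely used marker of low sugar, went from 116 ± 64.1 to 18.6 ± 4.47 CPM in Mock (-2.65 ± 0.76, adjusted p = 0.0139) and from 217 ± 50.3 to 7.67 ± 3.34 CPM in Dex (-4.82 ± 0.85, adjusted p = 5.52e-04, both edgeR). The Mock calls of *DIN6* and *DIN11* were lost without replicate 2 at 2 h, and the Dex calls of *DIN9*, *EXL1* and *BCAT2* without replicate 1 at 8 h.

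**Figure D4:**
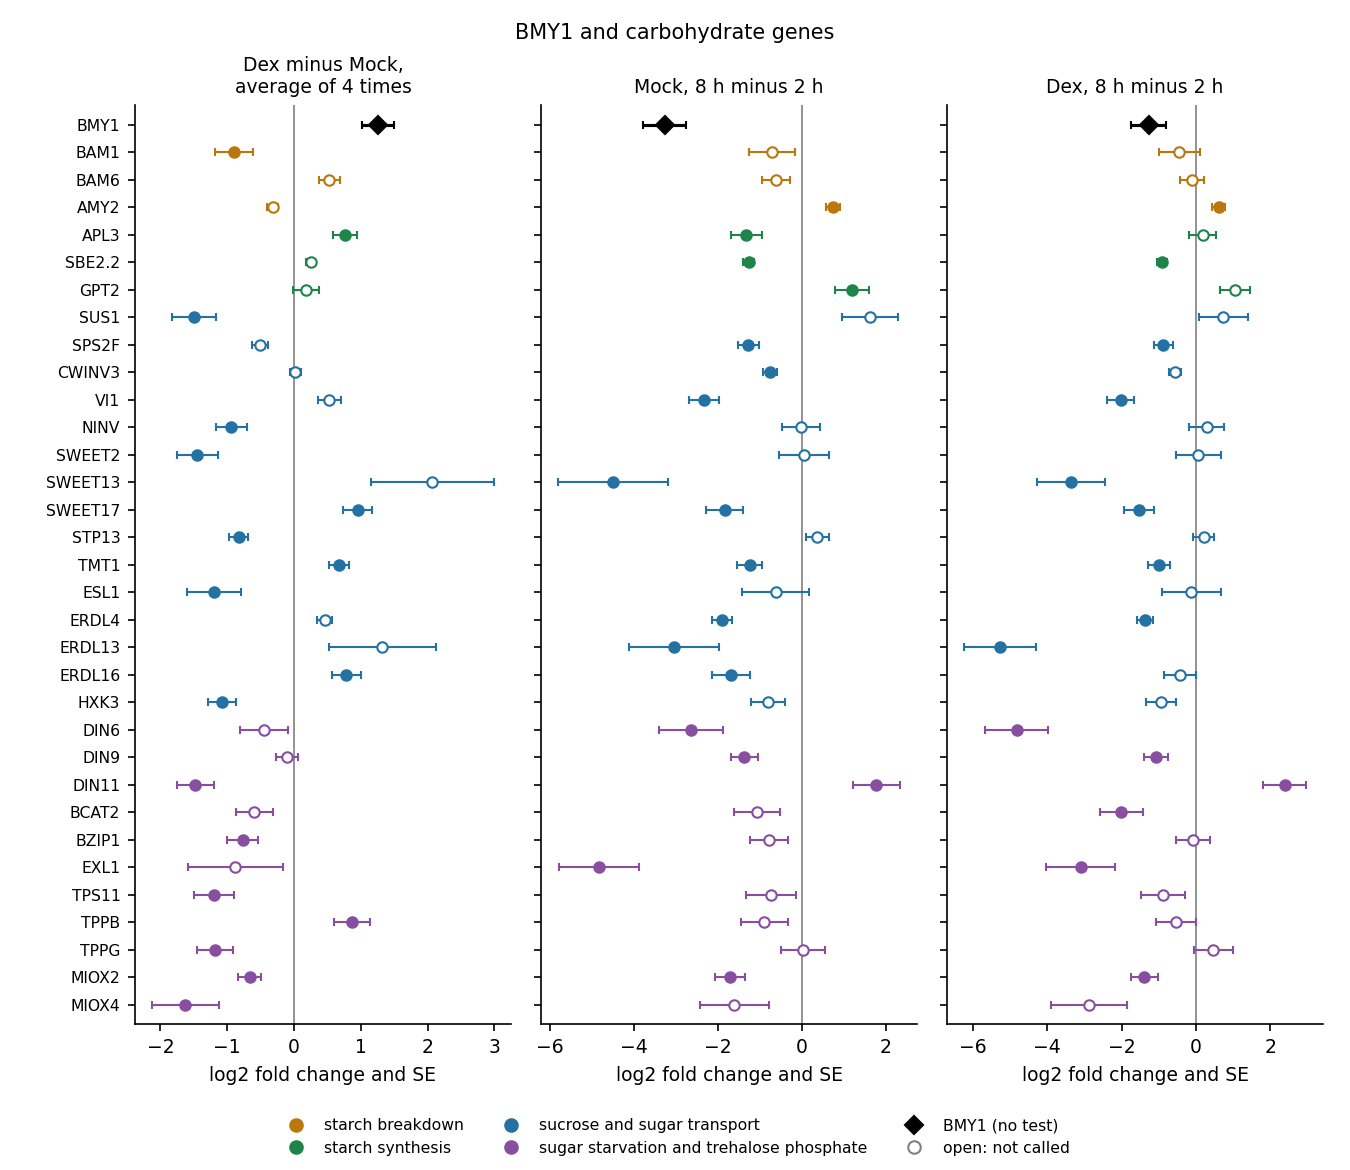
Log2 fold change ± SE of *BMY1* (black diamonds, no test) and of carbohydrate genes (circles coloured by group, filled where called by edgeR) for Dex minus Mock averaged over the times, for 8 h minus 2 h in Mock and for 8 h minus 2 h in Dex. *BMY1* stands at 1.25, -3.27 and -1.27, and *APL3*, *SWEET17* and *TMT1* lie on the same side as *BMY1* in the first 2 panels, while *AMY2* lies opposite in all 3.

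Because BMY1 is a phloem enzyme in *A. thaliana*, marks of vascular tissue were read beside it. In bulk libraries fewer cells of a type and less RNA per cell cannot be told apart. Of 18 marks written down, 6 had an identifier in the study's tables. These 6, from sieve elements (*SEOR1*), the phloem and its companion cells (*SMXL4*, *AHA3*, *FTIP1*) and the xylem (*VND7*, *IRX3*), were detected in every library, with sums of 173 to 321 CPM in Dex and 167 to 372 CPM in Mock. In the average over the times 0 of 6 were called by edgeR or DESeq2 and 0 had an unadjusted p under 0.05, with a median of 0.02 and values from -0.16 to 0.42. Between 2 h and 8 h *AHA3* and *IRX3* fell in Mock and *SEOR1*, *AHA3* and *IRX3* in Dex, by at most 1.06 on the log2 scale. The mean log2 level of the list correlated with *BMY1* at 0.67 over the 24 libraries, 0.65 over Mock, 0.80 over Dex and 0.78 over the 16 libraries of replicates 2 and 3. The part of vascular tissue in the *BMY1* values was not tested.

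Most marks of mature leaf fell with time, as *BMY1* did. *GNC* did not, with 19.1 ± 3.85 CPM at 2 h and 20.7 ± 1.01 CPM at 8 h in Mock. In Dex it held 30.6 ± 5.83 and 38.8 ± 9.74 CPM at these times. *CAB1* held 11043 ± 1286, 15456 ± 3448 and 6606 ± 367 CPM in Mock at 2, 4 and 8 h. Its correlation with *BMY1* over the 24 libraries was 0.05, the lowest of the 7 marks. The mean log2 level of the 7 correlated with *BMY1* at 0.73 over the 24 libraries. The values were 0.81 over Mock, 0.60 over Dex and 0.79 over the 16 libraries of replicates 2 and 3. Of 7 photosynthesis genes, 5 fell between 2 h and 8 h in both treatments (15.5% of all genes fell in Mock and 10.7% in Dex), including the antenna gene *LHCB2.1*, from 2346 ± 55.1 to 24.6 ± 1.65 CPM in Mock (-6.58) and from 3063 ± 374 to 66.7 ± 29.7 CPM in Dex (-5.52, adjusted p = 5.52e-10 and 4.92e-09, edgeR). In the average, where 4.76% of all genes were called higher in Dex, 2 of 7 were, *LHCB2.1* (0.69 ± 0.15, adjusted p = 0.00564) and the chloroplast factor gene *GNC* (0.68 ± 0.13, adjusted p = 0.00464), and 0 without replicate 1 (0.687% of all genes called; 6 of 7 at an unadjusted p under 0.05). Of 9 flavonoid genes 7 were called higher in Dex in the average (4.76% of all genes), led by *UF3GT* (1.36 ± 0.32, adjusted p = 0.00686) and *DFR* (1.05 ± 0.34, adjusted p = 0.0232), both of anthocyanin synthesis, and 0 without replicate 1 (4 of 9 at an unadjusted p under 0.05). The list median was 0.71 with all libraries and 0.31 without replicate 1, and the *DFR* call was lost without Dex replicate 1 at 4 h or at 6 h. Of 8 root hair and seed genes, which mark other tissue, 3 were called higher in Dex, led by the seed storage genes *CRU1* (2.18 ± 0.82, adjusted p = 0.0438) and *CRC* (2.15 ± 0.80, adjusted p = 0.0416, all edgeR), in a list whose sum ran from 0.373 to 107 CPM in Dex and from 1.06 to 24.2 CPM in Mock. The *CRU1* call was lost in 16 of 24 fits without a single library (1.25 to 2.95) and the *CRC* call in 13 of 24 (1.23 to 2.70). Without replicate 1 none of the 8 was called by edgeR (5 at an unadjusted p under 0.05), but the list median was 1.56 both with and without it. Between 2 h and 8 h edgeR called 3 of the 8 lower in Mock and 5 in Dex (15.5% and 10.7% of all genes), with medians of -2.76 and -3.40. The root hair genes *EXPA18*, *COW1* and *LRX1* were called lower in both. The Mock calls of *EXPA18* and *LRX1* were lost without replicate 2 at 2 h. Correlations of the 8 with *BMY1* over the 24 libraries ran from 0.12 to 0.78. Identifiers of 4 of the 7 photosynthesis, 7 of the 9 flavonoid and 7 of the 8 root hair and seed genes appear only among the study's differentially expressed genes. Those came from these same libraries, so the counts called are not independent evidence of a direction. The part of these lists in the *BMY1* values was not tested.

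Many genes had a profile like that of *BMY1*. Over the 24 libraries 849 of 21688 other genes had a Pearson correlation with *BMY1* above 0.8 in log2 CPM, 85 above 0.9 and 804 below -0.8, with a median of 0.03. The libraries share groups, times and, in replicate 1, the stress signs above, so these values describe likeness and carry no p. Of the 1109 genes with a name, *JAL22*, a jacalin-related lectin gene, was nearest (r = 0.958, and 0.977 in Mock, 0.927 in Dex and 0.932 without replicate 1) and ranked 3 of all genes. Its level was 53.5 ± 1.07 CPM in Mock at 2 h, 16.8 ± 0.293 in Mock at 8 h and 28.4 ± 5.92 in Dex at 8 h.

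The next were *AtFaTA* (an acyl-ACP thioesterase of fatty acid synthesis, r = 0.944), *SAHH2* and *ADK2* (adenosylhomocysteine hydrolase and adenosine kinase, which recycle the product of methylation reactions, 0.942 and 0.923), *SKS6* (of the SKU5 family of cell wall proteins, 0.940) and *NRT1.5* (a nitrate transporter, 0.925). *ACT11* (actin, 0.925), *TUB1* (beta-tubulin, 0.920), *EDA38* (0.917) and *GUN4* (of chlorophyll synthesis, 0.914) completed the 10. All 10 were lower at 8 h than at 2 h in Mock, by 1.02 to 5.79 on the log2 scale, and higher in Dex at 8 h, by 0.76 to 2.26, a direction that the choice of genes by likeness fixes. *NRT1.5* had the widest course, from 54.2 ± 17.9 to 0.974 ± 0.0168 CPM in Mock.

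The lowest correlations among named genes were those of *anac103* (-0.945), *ARFA1D* (-0.934), *GEK1* (-0.929), *emb1624* (-0.916) and *DER1* (-0.916). In *A. thaliana* NAC103 and derlins such as DER1 act in the response to misfolded proteins in the endoplasmic reticulum, and ARFA1D is a small GTPase of vesicle traffic. *anac103* went from 3.09 ± 0.418 to 19.9 ± 2.48 CPM in Mock and from 2.56 ± 0.526 to 9.37 ± 3.40 CPM in Dex between 2 h and 8 h. Among carbohydrate genes the values were 0.897 for *SWEET17*, 0.876 for *TMT1*, 0.868 for *APL3* (0.944 in Mock) and 0.678 for *BAM6*, against -0.190 for *BAM1* and -0.901 for *AMY2*. Without replicate 1 the *BAM1* value changed sign to 0.674, with 0.656 for *BAM6* and -0.918 for *AMY2*. *ChCUC1*, the induced gene, had 0.567 over all libraries and 0.394 without replicate 1.

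**Figure D5:**
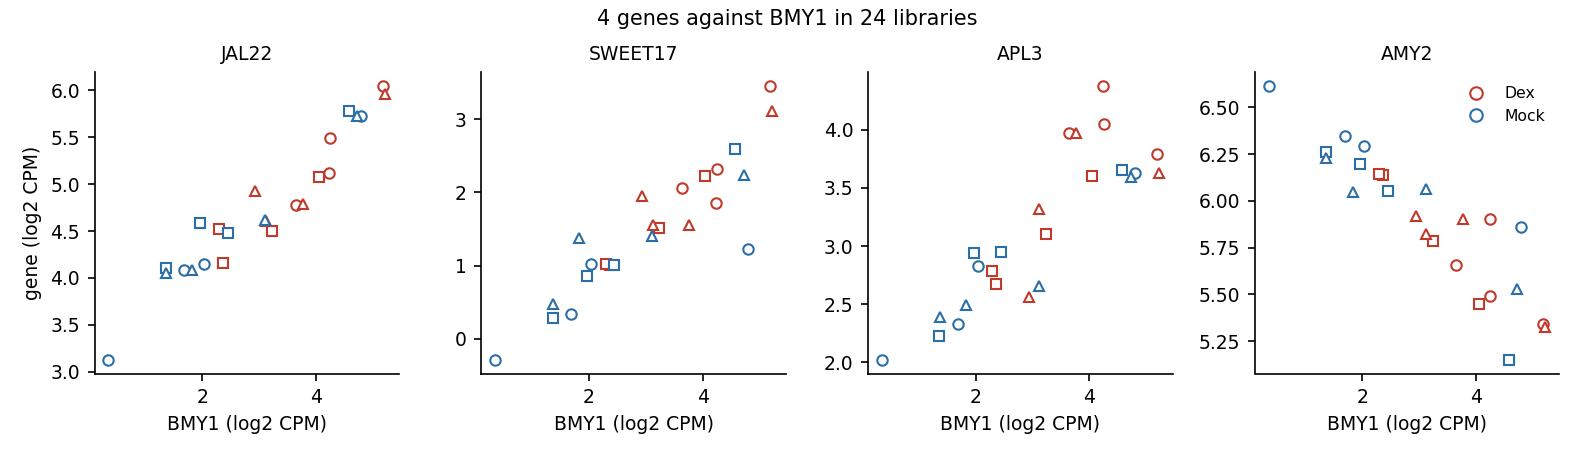
Log2 CPM of *JAL22*, *SWEET17*, *APL3* and *AMY2* against log2 CPM of *BMY1*, 1 symbol per library (circles, squares and triangles for replicates 1, 2 and 3; red for Dex, blue for Mock). The correlations are 0.958, 0.897, 0.868 and -0.901, and Mock replicate 1 at 6 h is the leftmost point in each panel.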

How the data were processed

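Poly(A) RNA of 24 pools was sequenced from directional libraries. Per the labels, the authors aligned reads with STAR 2.4.2a, counted them with HTSeq 0.5.4p1 and tested with DESeq (version not given in the sources used here). The deposited files hold unnormalised whole-number counts per gene. For genome build, annotation and strand setting the entry is "not given in the sources used here". Reads of overlapping genes, sense or antisense, cannot be told apart, nor can reads of the *ChCUC1* transgene and the endogenous gene.

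Lines that name no gene entered neither library sizes nor tests (5.65% to 15.8% of reads had no gene and 0.192% to 0.370% were ambiguous). Counts were fitted with edgeR 4.0.16 in R 4.3.3 (glmQLFit robust, glmQLFTest, two-sided, TMM, filterByExpr minimum count 10, 21689 genes) on all 24 libraries with 1 coefficient per group. P-values were adjusted by Benjamini-Hochberg over the 21689 genes. Log2 CPM used a prior count of 2. DESeq2 1.42.0, other scaling, no filter, a replicate block, fits on 1 time alone and fits without single libraries or replicate numbers were tried. Scripts were tested on simulated data. Replicate numbers were taken from the titles.

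Names came from 4021 identifier pairs in the study's supplementary tables, 1846 of them only in its tables of differentially expressed genes. A pair was found for 7 of 11 photosynthesis, 9 of 13 flavonoid and 8 of 11 root hair and seed genes written down. The reference table matched no identifier, and no sequence or coordinate was used. *BMY1*, the lists and the tests were chosen with earlier results of these data known. Named genes were *BMY1*, *ChCUC1*, all starch breakdown genes tested, carbohydrate genes called in Dex against Mock or in 8 h against 2 h, of each other list the 2 called genes with the largest average difference, and the 10 genes most and 5 least correlated with *BMY1*. Members of the vascular and shoot apex lists, *CAB1*, the root hair genes *EXPA18*, *COW1* and *LRX1*, and the time changes of *LHCB2.1* and *GNC* were named beyond that rule after their values were seen. Intervals cover counting error only.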

Additional observations from a re-analysis of the deposited data

How the results depend on the processing

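*BMY1* kept its direction in all 8 comparisons under every alternative run. Over single libraries or replicate numbers left out, the Dex minus Mock values ran from 0.02 to 0.499 at 2 h, 0.36 to 1.60 at 4 h, 0.80 to 2.11 at 6 h, 1.76 to 2.59 at 8 h and 0.79 to 1.57 in the average, the 8 h minus 2 h values from -3.38 to -3.20 in Mock and -1.72 to -0.89 in Dex, and the 8 h less 2 h Dex difference from 1.53 to 2.37. Over the same fits the genes called numbered 0 to 4809 in the average (0 without replicate 3, with 8601 at an unadjusted p under 0.05), 0 to 169 at 8 h, 2008 to 6136 over time in Mock and 938 to 4436 in Dex. The carbohydrate genes called numbered 0 to 23 in the average, 3 to 25 in Mock and 3 to 17 in Dex. Of 121 calls of named genes and list members, 76 remained without replicate 1, 79 without replicate 2 and 17 without replicate 3, and 120 with median-ratio scaling, 119 without a filter, 117 with the replicate block and 117 of the 119 to which DESeq2 gave an adjusted p, with no reversal. A lone library or pair left in a group was assumed to vary like the other groups. At 8 h DESeq2 called 136 genes and the fit on the 6 libraries of that time 88, against 0 in the fit of all libraries. The median correlation of the 10 genes most like *BMY1* was 0.925, and 0.929 to 0.935 without 1 replicate number, 2 of these settings having been chosen after seeing the data.

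Libraries with the same number did not deviate in the same direction: only 2 of 12 Dex and Mock pairs had a correlation of deviations over 0.1 (-0.593 to 0.137). The expression values thus give no sign of pairing by number. They cannot tell whether those pools were grown or treated together, which the labels do not say. With the number as a replicate block the *BMY1* values were 0.14, 0.99, 1.42 and 2.11 at 2, 4, 6 and 8 h and 1.16 in the average, with 2812 genes and 19 carbohydrate genes called.

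Depth limits *BMY1* most in Mock at 6 h and 8 h, where the libraries held 18 to 76 reads of it and, for example, the exact Poisson interval of Mock replicate 2 at 8 h ran from 1.82 to 3.26 CPM.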
